A study of Homo sapiens with 28 samples.

Results

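The clustered histone genes of chromosome 6, named HIST1H in the deposited annotation, were described by chromatin accessibility. Every region of chromosome 6 whose assigned gene symbol starts with HIST1H was taken, which gave 72 of the 154985 accessible regions. Of these, 55 lay within 2.5 kb of the transcription start they were assigned to and carried 94.9% of the members' signal, 44 overlapped that start, and 17 lay farther away. The members ran from chr6:25710307 to chr6:27862309 (GRCh37) in 3 blocks separated by more than 200 kb, with 51, 5 and 16 regions. By assigned symbol, 6 regions belonged to H1 genes, 10 to H2A, 15 to H2B, 11 to H3, 15 to H4 and 15 to histone pseudogenes.

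Histones H2A, H2B, H3 and H4 form the core particle around which DNA is wound, and H1 binds the DNA that links such particles. The genes in this cluster are present in many near-identical copies, mostly lack introns, and make the bulk of histone mRNA while DNA is replicated. Many H2A and H2B genes are arranged as divergent pairs that start from a common promoter, so that 1 accessible region can serve both.

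The assay was ATAC-seq, where a transposase cuts and tags DNA in open chromatin. The untreated group held 22 human myeloma cell lines (H1112, Karpas620, KMS11, KMS12BM, KMS12PE, KMS18, KMS20, KMS21BM, KMS26, KMS27, KMS28, KMS34, L363, LP1, MM1S, OCIMY5, OPM2, PCM6, PE1, RPMI8226, U266 and XG-6), and the lenalidomide group held 6 of them (Karpas620, KMS27, L363, MM1S, OPM2 and RPMI8226) collected at day 3 of 10 µM lenalidomide, a drug that directs the ubiquitin ligase subunit cereblon to IKZF1 and IKZF3. Each line was assayed once per condition, so there is no replicate of a line, spreads are over lines, and p-values refer to the 6 pairs. Counts in regions totalled 1599857 to 5564534 per untreated library and 2168680 to 4248017 per lenalidomide library, and levels are given as CPM, a region's counts scaled to a common total per library. A region is called open in a line where that line's own peaks reached it.

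The labelled cell type was checked at start-proximal regions. All 7 plasma cell genes examined had such a region, with means from 17.3 CPM at XBP1 to 63.3 CPM at SDC1, and their summed level ran from 159 to 366 CPM over the untreated lines and from 220 to 329 CPM with lenalidomide. MZB1, a plasma cell gene, was called lower with lenalidomide by edgeR (log2 change -0.49, adjusted p = 0.0311) but not by DESeq2 (adjusted p = 0.136), and edgeR called 5.4% of all regions tested. Means were 4.07, 1.95 and 0.756 CPM at the T cell genes CD3D, CD3E and CD3G. They were 3.04, 1.37 and 1.27 CPM at the myeloid genes CD14, ITGAM and CSF1R. Other genes of such lists were accessible, such as CD8A (23.8 CPM, T cell), EPOR (70.3 CPM, erythroid) and COL1A1 (22.9 CPM, stromal). These were open in 21, 22 and 21 lines, while the plasma cell genes IRF4 and XBP1 were open in 18 each. The erythroid gene HBB had 8.41 CPM and was open in 9 lines. The check thus separates lineages only in part. In the untreated lines the summed level of the T cell list ran from 10.6 to 71.9 CPM, of the myeloid list from 0.509 to 17.5 CPM and of the stromal list from 13.04 to 113 CPM, and the part of these differences in the results was not tested. DNA copy number was not measured here, so more copies of a region, more cells with it open and more open chromatin per cell cannot be told apart.

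RefSeq lists 55 protein-coding HIST1H genes, and the promoters of 50 of them had an accessible member over the stretch from 250 bases before to 50 bases after the start. The 5 without one were HIST1H2AA, HIST1H2BA, HIST1H1A, HIST1H1T and HIST1H4G. HIST1H1T encodes the testis linker histone and HIST1H2BA a testis form of H2B. The 50 genes fell on 39 regions, because 9 regions covered 2 or 3 starts and together served 20 genes. These 9 regions, such as the one over HIST1H2BC and HIST1H2AC, had mean levels from 51.5 to 107 CPM, with a median of 56.9 CPM. The 30 regions over 1 start ranged from 1.88 to 86.2 CPM, with a median of 28.9 CPM. Per kb of region the medians were 52.6 CPM for the shared and 29.8 CPM for the single promoters, and 4 of 9 shared against 5 of 30 single promoters were open in all 22 lines. Regions are not independent samples, so these are descriptions without a test. Where a region covers several starts, the symbol used below is the one the authors assigned. The counts of shared regions follow the RefSeq or GENCODE starts. For HIST1H3D the authors' annotation also has a start under another member (chr6:26197191-26197776, mean 27.8 CPM). Another start-proximal member is likewise assigned to HIST1H3J, outside its shared region.

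The 250 bases before the start are shown for the most accessible start-proximal member of the H1, H2A, H2B and H4 classes, for HIST1H2BB, whose region had the lowest fitted change after lenalidomide, and for HIST1H4E, the gene to which the region with the highest fitted change was assigned. That region lies 1298 bp past the HIST1H4E start, and the promoter shown lies in another region, with a fitted log2 change of -0.20. The sequences are RefSeq promoters (GRCh38.p14 table) that each matched the GRCh37 reference once, and are written in the direction of transcription. Capitals mark 4 motifs searched on both strands, namely the octamer ATGCAAAT (reverse ATTTGCAT), the CCAAT box (reverse ATTGG), the TATA box TATAAA (reverse TTTATA) and GGTCCG (reverse CGGACC), the core of an element known from H4 promoters.
HIST1H1C, chr6:26056699-26056948, minus strand: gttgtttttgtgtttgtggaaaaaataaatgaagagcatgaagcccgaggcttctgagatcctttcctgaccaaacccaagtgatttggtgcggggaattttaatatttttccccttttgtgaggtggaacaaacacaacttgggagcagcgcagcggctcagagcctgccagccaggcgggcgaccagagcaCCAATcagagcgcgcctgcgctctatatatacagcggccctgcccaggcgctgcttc
HIST1H2AK, chr6:27806154-27806403, minus strand: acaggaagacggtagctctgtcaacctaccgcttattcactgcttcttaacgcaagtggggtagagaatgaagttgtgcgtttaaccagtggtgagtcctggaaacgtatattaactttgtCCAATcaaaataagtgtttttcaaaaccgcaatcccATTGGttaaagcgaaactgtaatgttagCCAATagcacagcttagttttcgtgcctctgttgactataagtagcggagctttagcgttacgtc
HIST1H2BC, chr6:26124155-26124404, minus strand: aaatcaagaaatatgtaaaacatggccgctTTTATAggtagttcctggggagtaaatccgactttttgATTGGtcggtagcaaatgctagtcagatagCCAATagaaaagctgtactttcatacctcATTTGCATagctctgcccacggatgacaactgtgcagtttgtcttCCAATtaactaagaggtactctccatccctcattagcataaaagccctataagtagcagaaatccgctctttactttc
HIST1H2BB, chr6:26043942-26044191, minus strand: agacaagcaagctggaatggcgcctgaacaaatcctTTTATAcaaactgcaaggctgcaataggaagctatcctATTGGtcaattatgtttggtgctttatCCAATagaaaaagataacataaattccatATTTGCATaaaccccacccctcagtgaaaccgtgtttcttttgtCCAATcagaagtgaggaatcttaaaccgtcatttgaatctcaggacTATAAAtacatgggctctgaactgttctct
HIST1H4B, chr6:26027512-26027761, minus strand: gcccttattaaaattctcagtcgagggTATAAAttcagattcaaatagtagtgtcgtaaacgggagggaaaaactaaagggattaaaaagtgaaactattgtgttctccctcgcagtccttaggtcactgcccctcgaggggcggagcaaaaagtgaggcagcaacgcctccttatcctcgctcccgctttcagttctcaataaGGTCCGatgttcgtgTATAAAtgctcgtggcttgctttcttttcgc
HIST1H4E, chr6:26204588-26204837, plus strand: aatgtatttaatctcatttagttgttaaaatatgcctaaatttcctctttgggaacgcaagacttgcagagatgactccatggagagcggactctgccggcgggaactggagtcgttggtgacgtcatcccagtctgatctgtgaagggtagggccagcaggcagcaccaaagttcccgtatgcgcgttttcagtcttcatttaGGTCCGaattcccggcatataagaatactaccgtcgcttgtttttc

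In these windows HIST1H2BC and HIST1H2BB each carry the octamer and 3 CCAAT boxes, whereas HIST1H4B and HIST1H4E carry GGTCCG and no CCAAT box. The same division held over the 50 genes with a RefSeq promoter. The octamer, the site bound by POU2F1, was in 12 of 15 H2B and 9 of 11 H2A promoters, in 1 of 8 H3 promoters and in 0 of 6 H1 and 0 of 10 H4 promoters, against 1.66% of all 27305 promoters. Divergent H2A and H2B genes share part of one window, so their counts are not independent. The H3 promoter with the octamer was that of HIST1H3D, whose RefSeq start is the same as that of HIST1H2AD. It is therefore the HIST1H2AD window counted again. CCAAT was in every H1, H2A, H2B and H3 promoter examined and in 3 of 10 H4 promoters, against 33.0% of all promoters. GGTCCG was in 9 of 10 H4 promoters and in 1 H3 promoter, against 9.33% of all promoters. TATAAA was in 33 of the 50, against 11.1% of all promoters. A match of letters is not evidence that a factor was bound. HIST1H3I, HIST1H3J, HIST1H4A, HIST1H4C and HIST1H2AH had no entry. The 44 members that overlap their start had a median GC content of 51.3%, below the 61.4% of all 18012 start-overlapping regions, with a higher ratio of observed to expected CpG (0.837 against 0.719).

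Because the genes are near copies of each other, the share of 31-base words of each region that also occur elsewhere in GRCh37 was counted. The median over members was 6.67%, 13 members had none and 30 had 10% or more. Values were 56.4% at HIST1H2BL, 50.2% at HIST1H4J, 42.5% at HIST1H4K, 30.3% at HIST1H2AJ and 27.8% at HIST1H2AK. How reads with several matches were treated is not given in the sources used here, so levels of these regions are uncertain.

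Among the H1 genes the highest region was that of HIST1H1C (chr6:26055150-26056884), with a mean of 85.0 ± 28.1 CPM (SD over 22 lines). It was lowest in XG-6 at 38.1 CPM, had a median of 82.6 CPM and was highest in KMS12BM at 156 CPM, and it was open in all 22 lines. HIST1H1D (46.3 ± 19.9 CPM), HIST1H1B (33.2 ± 23.0 CPM) and HIST1H1E (29.9 ± 8.86 CPM) followed, and their SDs overlap. HIST1H1B, another linker histone gene, was open in 12 lines and ran from 1.05 CPM in KMS12BM through a median of 33.5 CPM to 88.3 CPM in KMS12PE. HIST1H1E kept between 14.7 and 48.4 CPM.

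Among the H2A genes, HIST1H2AK (chr6:27805778-27806887, which also covers the start of HIST1H2BN) was highest, at 58.3 ± 12.2 CPM, with a lowest value of 39.1 CPM in OPM2, a median of 54.4 CPM and a highest value of 93.1 CPM in KMS18. HIST1H2AD, whose region covers the start of HIST1H2BF and the RefSeq start of HIST1H3D too, had 56.9 ± 17.5 CPM and HIST1H2AJ 56.3 ± 31.3 CPM. These 3 do not differ beyond their spread. HIST1H2AJ nevertheless varied far more than HIST1H2AK, from 1.19 CPM in KMS21BM to 114 CPM in KMS12BM.

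The H2B class held the most accessible members. HIST1H2BC (chr6:26122988-26124747) had a mean of 107 ± 21.1 CPM, from 56.1 CPM in XG-6 through a median of 112 CPM to 143 CPM in H1112. HIST1H2BJ (99.4 ± 23.3 CPM), HIST1H2BK (86.2 ± 24.8 CPM) and HIST1H2BD (86.2 ± 22.04 CPM) came next, each within an SD of its neighbour in this order, and these 4 regions were open in every line. The class also held some of the least accessible members, HIST1H2BA at 1.77 ± 3.13 CPM, HIST1H2BE at 1.88 ± 3.43 CPM, and a narrow region assigned to HIST1H2BM at 2.02 ± 2.17 CPM, whose start lies under the HIST1H2AJ region. The HIST1H2BE promoter reached 10.8 CPM in KMS27, 10.6 CPM in MM1S and 8.11 CPM in XG-6 and stayed under 2 CPM in 18 lines.

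The highest region assigned to an H3 gene was chr6:27860610-27861492 (HIST1H3J), which also covers the starts of HIST1H2AM and HIST1H2BO. It had 51.5 ± 10.3 CPM, from 33.9 CPM in LP1 through a median of 50.5 CPM to 72.9 CPM in KMS18. The HIST1H3J start under it was placed from GENCODE alone. Another start-proximal member assigned to HIST1H3J (chr6:27858264-27858967) had a median of 39.1 CPM. Which of these regions holds the start used by HIST1H3J was not tested. HIST1H3B (41.3 ± 14.1 CPM) was the one H3 member open in all 22 lines. HIST1H3I (2.92 ± 4.87 CPM), HIST1H3E (6.44 ± 6.14 CPM) and HIST1H3A (6.54 ± 7.93 CPM) were at the low end. HIST1H3A was under 2 CPM in 12 lines and reached 23.9 CPM in KMS27.

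Among the H4 genes, HIST1H4B (chr6:26026420-26027691) had 61.6 ± 14.99 CPM, from 32.3 CPM in OPM2 through a median of 62.4 CPM to 98.6 CPM in KMS12BM, and HIST1H4H had 58.1 ± 13.7 CPM. Both were open in all 22 lines and their levels overlap. HIST1H4F (2.57 ± 6.57 CPM) and HIST1H4L (4.74 ± 10.8 CPM) were highest in H1112, at 30.9 and 51.6 CPM, respectively, whereas the next highest lines had 8.77 CPM (KMS27) and 10.2 CPM (PCM6). H1112 was also the deepest library.

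Of the pseudogene members near a start, the one assigned to HIST1H2APS4 (47.7 ± 17.7 CPM) covers the start of the protein-coding gene HIST1H2BI. HIST1H2APS1 (0.839 ± 1.35 CPM) and HIST1H2APS3 (1.69 ± 1.38 CPM) were among the lowest of all. Regions beyond 2.5 kb of a start were weaker, with a median of 3.61 CPM against 26.9 CPM for the start-proximal members. The highest of them, at 15.8 ± 9.84, 14.99 ± 8.08 and 12.6 ± 4.89 CPM, were assigned to HIST1H3PS1 (the first pair) and HIST1H4PS1.

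**Figure D1:**
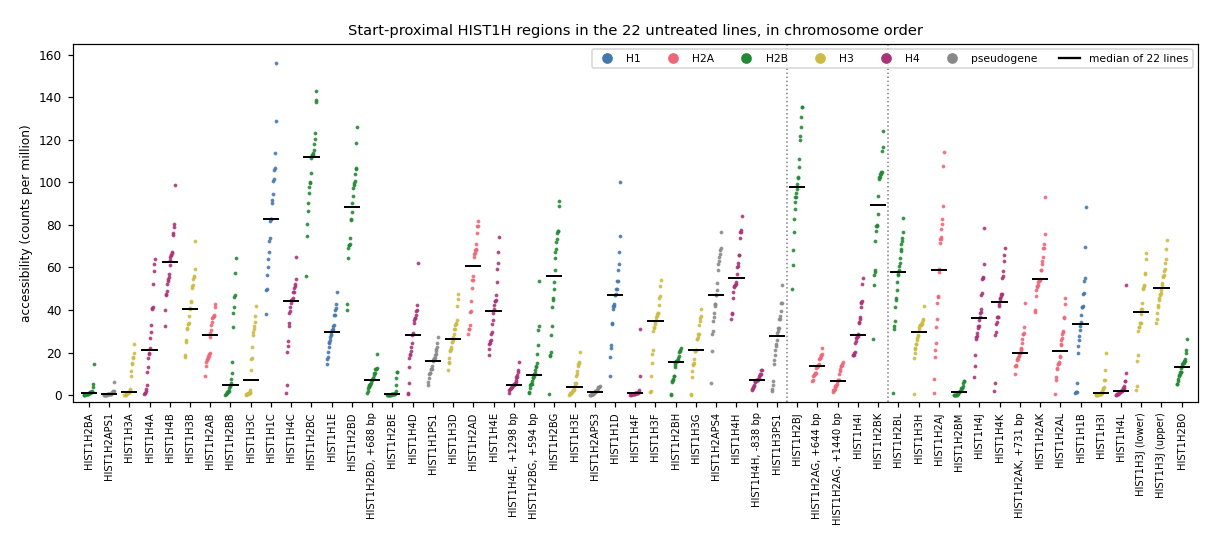
Accessibility in CPM (vertical axis) of the 55 start-proximal HIST1H regions in chromosome order (horizontal axis). Each point is 1 of 22 untreated lines, colours give the histone class, black bars the median and dotted lines the borders of the 3 blocks. HIST1H2BC, with a median of 112 CPM, is the highest, while HIST1H2BE, HIST1H3I and HIST1H4F lie near 0 in most lines.

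Summed over all 72 members, the signal ran from 1098 CPM in KMS21BM (95% exact binomial interval 1048 to 1149, counting error only) through a median of 1900 CPM to 2653 CPM in KMS12BM (2601 to 2705), a 2.42-fold range. XG-6 (1181 CPM), OPM2 (1237 CPM) and KMS11 (1248 CPM) stood next to KMS21BM at the low end, and no line lay between them and KMS20 at 1663 CPM. At the high end H1112 had 2516 CPM. The 35 start-proximal regions of other genes inside the same interval had a smaller range of 1.72-fold (481 to 825 CPM). Over the 22 lines the HIST1H sum had r = 0.37 (rho = 0.31) with that neighbouring sum, r = 0.50 (rho = 0.42) with the library's depth, and r = 0.23 (rho = 0.35) with the share of counts in start-overlapping regions. All of these share the library and its total.

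Between 23 (KMS21BM) and 47 (H1112) of the 72 members were open per untreated line, with a median of 36. In all, 9 members were open in all 22 lines, namely HIST1H4B, HIST1H3B, HIST1H1C, HIST1H2BC, HIST1H2BD, HIST1H4H, HIST1H2BJ, HIST1H2BK and HIST1H2AK. That is 12.5% of the members against 3.98% of all regions. Among regions that overlap a start the order turned, with 9 of 44 members (20.5%) against 29.4% of all 18012. A further 10 of the 72 members were open in 20 or 21 lines, 14 in 1 line and 5 in no untreated line. Of all 154985 regions, 3552 were open in 20 or 21 lines, 57561 in 1 line and 12495 in none. The 5 members open in no untreated line include HIST1H1PS1, which had a mean of 15.4 CPM over a narrow region of 398 bp. The call depends on depth, and 27 members had at least 2 CPM in every line.

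The variation of each region, the SD of log2(CPM + 1) over the 22 lines, was ranked among the 1000 regions of the genome nearest in mean. The median percentile of the 55 start-proximal members was 64.4, with 14 above 90 and 7 below 10. The steadiest included HIST1H2AK (percentile 1.3), the higher HIST1H3J region (1.9), HIST1H2BC (3.9) and HIST1H4H (6.1), and the highest line exceeded the lowest by 2.38-fold, 2.15-fold, 2.54-fold and 2.37-fold, respectively. The most variable were HIST1H2BE (99.9), HIST1H3C (99.7), HIST1H2BB (99.4), HIST1H3A (98.7) and HIST1H3I (98).

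HIST1H2BB and HIST1H3C are neighbours whose regions lie 0.624 kb apart, and they split the lines in much the same way. HIST1H2BB ran from 0 CPM in XG-6 through a median of 4.87 CPM to 64.6 CPM in PCM6, and HIST1H3C from 0 CPM in XG-6 through 7.18 CPM to 41.9 CPM in PE1. Both were at 10 CPM or more in 9 lines and both under 10 CPM in 11, and in the other two, KMS20 and H1112, only HIST1H3C was above (11.8 and 29.8 CPM). In XG-6 the count was 0 for either region. MM1S, KMS27 and KMS26 were among the lines with both open, at 57.3, 46.2 and 47.1 CPM for HIST1H2BB and 31.2, 34.4 and 22.6 CPM for HIST1H3C. In the same libraries HIST1H1C, the next member along the chromosome, was at no less than 38.1 CPM.

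**Figure D2:**
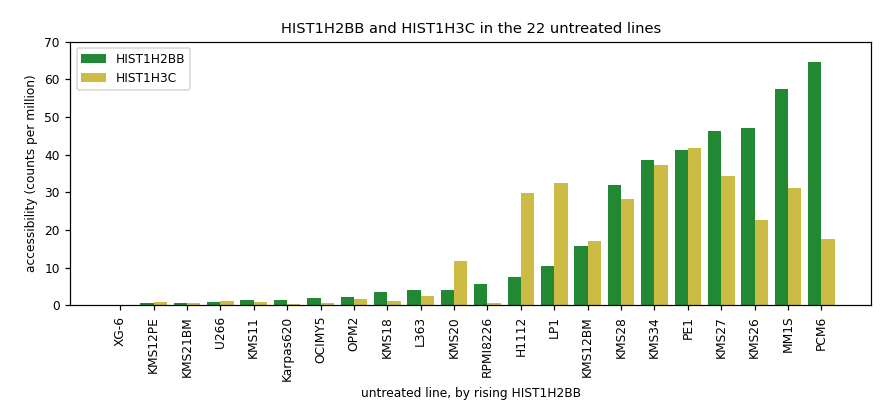
Accessibility in CPM (vertical axis) of HIST1H2BB and HIST1H3C in the 22 untreated lines, ordered by rising HIST1H2BB (horizontal axis). Each bar is 1 library; in 11 lines both are under 10 CPM and in 9 lines both are at 10 CPM or more.

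Other members were open in most lines and close to 0 in a few. After the values had been seen, start-proximal regions with a median of at least 20 CPM were searched for lines under 10% of that median. Of 33 such members, 14 (42.4%) had at least 1 such line, against 1007 of 8263 start-proximal regions of the genome (12.2%) and 1 of 12 other start-proximal regions of the interval. There were 23 pairs of a member and a line, in 11 lines, and 9 of the 14 members were near 0 in 1 line only. HIST1H2BG had 1 count in KMS18, where its median level would give 99.8. HIST1H4C had 4 counts in KMS12BM in place of 167, although KMS12BM had the highest level of the neighbouring HIST1H1C and 138 CPM at HIST1H2BC on the other side. HIST1H1B had 3 to 6 counts in KMS12BM, KMS18, LP1 and U266, and HIST1H4A 1 to 5 counts in Karpas620, KMS26, OCIMY5 and OPM2. The next gene, HIST1H4B, was at 61.1, 66.0, 75.2 and 32.3 CPM in those last 4 lines.

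In KMS21BM the low values ran over adjacent members. HIST1H2BL had 2 counts where its median would give 97.1, HIST1H3H 1 in place of 50.01 and HIST1H2AJ 2 in place of 98.4, and the small HIST1H2BM region had 0. Farther along, HIST1H4J was at 13.7 CPM and HIST1H4K at 29.8 CPM in that line. In OPM2, HIST1H3F (4 counts), HIST1H2BH (0 CPM) and HIST1H3G (1 count) were low together, with 5.74 CPM at the neighbouring HIST1H2APS4 region. In all, 4 of the 23 pairs were in lines with a lenalidomide library, and all 4 were near 0 there as well. HIST1H4A had 0.391 CPM in treated Karpas620 and 1.36 CPM in treated OPM2, and HIST1H3F and HIST1H3G had 0.904 CPM each in treated OPM2. Of the 14 members 6 had at least 10% of their words elsewhere in the genome, against 11 of the 33 searched. The part of DNA copy number in these values was not tested.

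**Figure D3:**
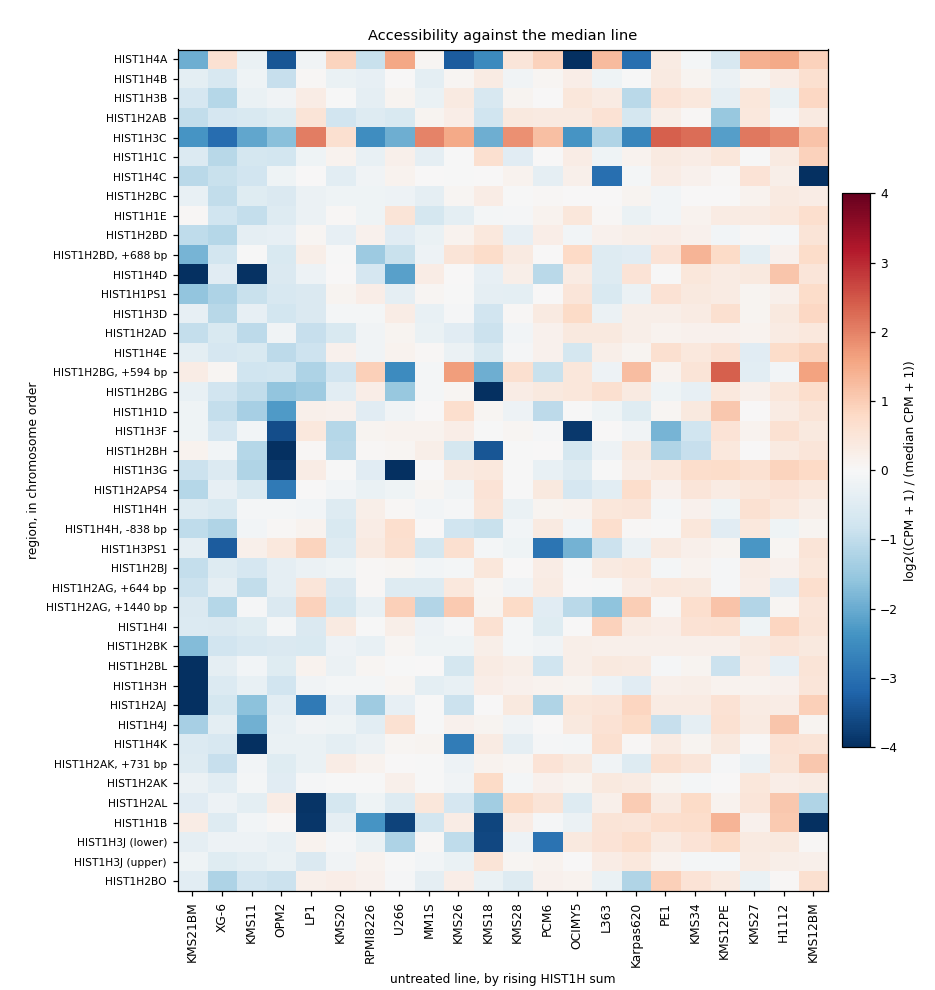
Accessibility of the 43 start-proximal HIST1H regions with a median of at least 5 CPM (rows, in chromosome order) in the 22 untreated lines (columns, by rising HIST1H sum), as log2((CPM + 1) / (median CPM + 1)), with colours capped at the ends of the scale. Dark blue cells are members near 0 in a line, such as HIST1H2BL, HIST1H3H and HIST1H2AJ in KMS21BM and HIST1H4C in KMS12BM.

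Across the 22 lines, levels of HIST1H regions were more alike among themselves than with their surroundings. The median r of log2(CPM + 1) over the 1485 pairs of start-proximal members was 0.21, against 0.06 over 1925 pairs of a member with another start-proximal region of the interval. Those other regions were weaker, with a median of 7.15 CPM against 26.9 CPM for the members. The part of this difference in level in the values of r was not tested. Adjacent members less than 10 kb apart had a median r of 0.57 over 42 pairs, and non-adjacent ones 0.21 over 1431 pairs. The median r was 0.22 within a class and 0.21 between classes. The most alike were HIST1H2BL with HIST1H3H (r = 0.91), HIST1H2BK with HIST1H2AJ (r = 0.89, 666 kb apart) and HIST1H2BB with HIST1H3C (r = 0.89). KMS21BM had the lowest level of both members in the first and in the second of these pairs. Pairs share libraries, depth and copy number, and many members hold words found elsewhere in the genome, so these values are descriptions. Some adjacent regions lie at one locus, such as those assigned to HIST1H2AJ and HIST1H2BM. The r among the other regions themselves was not computed, so the likeness is not shown to be particular to HIST1H.

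Lenalidomide was compared with no treatment in the 6 paired lines, with edgeR's quasi-likelihood test on counts, the line as a block and Benjamini-Hochberg adjustment over the 37732 regions with enough counts. Of the 72 members 50 were tested, and 1 of them, HIST1H2BB, passed an adjusted p of 0.05. That is 2% of the members tested, while 5.4% of all regions tested passed (4.17% raised and 1.22% lowered). Another 7 members had an unadjusted p under 0.05, which makes 8 of 50 beside 17.3% of all regions, and all 8 had lower values with lenalidomide.

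HIST1H2BB counts were 167 untreated and 101 with lenalidomide in MM1S, 137 and 101 in KMS27, 12 and 5 in RPMI8226, 8 and 1 in L363, 4 and 1 in Karpas620 and 4 and 1 in OPM2. Levels were lower with the drug in 6 of 6 lines, from 57.3 to 36.7 CPM in MM1S and from 46.2 to 34.5 CPM in KMS27, and the other 4 lines were at 5.67 CPM or less before treatment. The groups overlap because lines differ more than treatments. The fitted log2 change was -0.82 (SE 0.24, adjusted p = 0.0355). It did not pass with DESeq2 (-1.04, adjusted p = 0.0505), and when Karpas620, L363, OPM2 or RPMI8226 was left out it was -0.80 to -0.66 with edgeR adjusted p from 0.0582 to 0.0736. DESeq2 called none of the members, beside 2.21% of all regions. Without MM1S or KMS27 the region had too few counts to be tested, so the call was made only with all 6 lines. Beside both libraries of MM1S and KMS27, it met the filter on counts only in untreated L363 and RPMI8226 (4.08 and 5.67 CPM). The treated libraries of these lines, at 0.461 and 1.18 CPM, fell short. Its entry to the test thus rested in part on the group where it was higher. With no filter edgeR called it as well (adjusted p = 0.0170). HIST1H3C had too few counts in these 6 lines. It stood at 31.2 and 14.2 CPM in untreated and treated MM1S and at 34.4 and 32.5 CPM in KMS27, and under 3 CPM in the other 4.

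Fitted changes were below 0 for 43 of the 50 members, against 51.7% of all regions tested. Their median was -0.14, against -0.01 over all regions, and the median SE of a member was 0.14. By class 8 of 8 H2A, 8 of 8 H3, 10 of 11 H4, 9 of 11 H2B, 4 of 5 H1 and 4 of 7 pseudogene regions were below 0. Of the 20 other start-proximal regions of the interval that were tested, 6 were below 0, and their median was 0.09. This shift of the members rests in large part on MM1S, without which 28 of 46 were below 0 and the median was -0.05. Next to HIST1H2BB in p came the lower HIST1H3J region (-0.35, SE 0.12, adjusted p = 0.0668) and HIST1H3B (-0.40, SE 0.13, adjusted p = 0.0701) by edgeR, both chosen for their rank and lower in 5 of 6 lines. Under other settings the share of all regions past the threshold was 5.3% without TMM factors, 2.64% with all regions kept, 4.26% when each library had to hold 10 counts or more, and 0% without the line as a block. Leaving out a line gave 4.44% (Karpas620), 3.63% (KMS27), 3.6% (L363), 3.22% (MM1S), 3.55% (OPM2) and 6.74% (RPMI8226).

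The summed HIST1H signal had no common direction. It went from 1758 to 1188 CPM in MM1S, from 2026 to 1626 CPM in L363 and from 2234 to 1838 CPM in KMS27, and it was higher with lenalidomide in RPMI8226 (1698 and 1878 CPM), OPM2 (1237 and 1337 CPM) and Karpas620 (2065 and 2133 CPM). The mean log2 ratio was -0.14 ± 0.29 (SD, n = 6), lower in 3 of 6 lines, with a two-sided exact sign-flip permutation p of 0.281. The smallest p that 6 pairs allow is 0.0312. In MM1S 47 of the 50 tested members were lower, while the 20 other start-proximal regions tested in the interval summed to 545 and 579 CPM. In KMS27 40 of 50 were lower and in L363 39 of 50, beside 22 in Karpas620, 18 in OPM2 and 17 in RPMI8226. The median log2 ratio over all regions tested lay from -0.05 in MM1S to 0.02 in L363. Those neighbouring regions summed to 779 and 763 CPM in KMS27 and 716 and 695 CPM in L363. They were higher with the drug in RPMI8226 (724 and 867 CPM), OPM2 (461 and 510 CPM) and Karpas620 (652 and 733 CPM). The share of counts in start-overlapping regions went from 48.1% to 45.0% in MM1S, from 57.3% to 54.2% in KMS27 and from 56.2% to 55.6% in L363. It went from 44.9% to 46.8% in RPMI8226, from 51.2% to 52.8% in Karpas620 and from 46.97% to 45.9% in OPM2. Its part in these values was not tested.

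HIST1H2BC, the most accessible H2B member, went from 86.5 to 57.3 CPM in MM1S, from 123 to 94.1 CPM in KMS27 and from 113 to 94.1 CPM in L363. It differed little in Karpas620 (120 and 119 CPM) and OPM2 (74.6 and 77.3 CPM), and it was 100.1 and 113 CPM in RPMI8226. HIST1H1C, the most accessible H1 member, was lower with the drug in MM1S (64.2 and 48.6 CPM), KMS27 (82.0 and 65.0 CPM) and L363 (73.9 and 65.0 CPM). It was also lower in OPM2, at 49.6 and 43.4 CPM. In Karpas620 it was higher (91.6 and 97.4 CPM), as in RPMI8226 (67.1 and 68.7 CPM). None of the 5 most accessible members of their classes passed the test. By edgeR the log2 changes were -0.16 (SE 0.09, adjusted p = 0.337) for HIST1H2BC, -0.15 (SE 0.09, adjusted p = 0.414) for HIST1H1C and -0.17 (SE 0.10, adjusted p = 0.420) for HIST1H2AK. They were -0.06 (SE 0.11, adjusted p = 0.842) for the higher HIST1H3J region and -0.02 (SE 0.11, adjusted p = 0.967) for HIST1H4B. The largest fitted increase, 0.46 (SE 0.27, adjusted p = 0.404), was at a region 1298 bp from the start of HIST1H4E that was open in no untreated line and went from 1.04 to 5.88 CPM in OPM2 and from 5.84 to 2.90 CPM in MM1S.

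**Figure D4:**
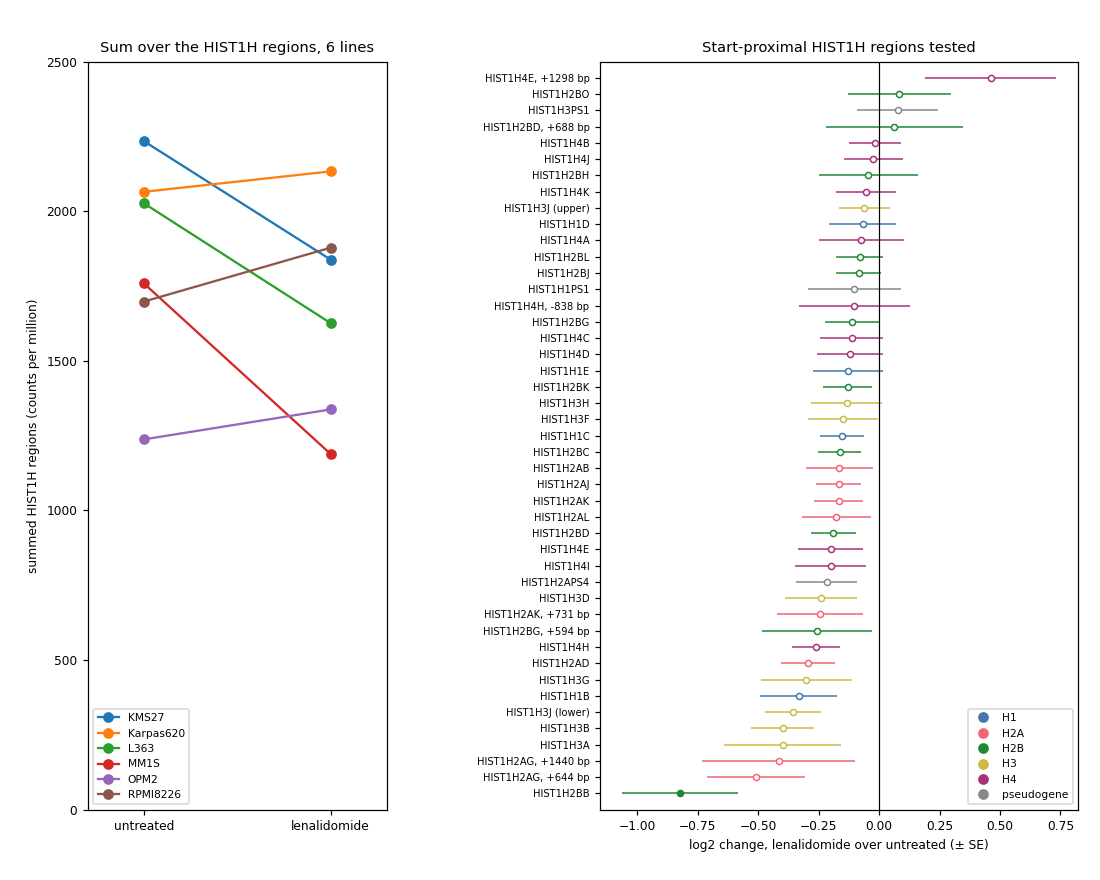
Left, HIST1H signal summed over 72 regions in CPM (vertical axis) for the 6 lines without and with lenalidomide, 1 library per point. Right, fitted log2 change with its SE (horizontal axis) of the 45 start-proximal members tested, coloured by class, with a filled point for the one past an adjusted p of 0.05, HIST1H2BB; 41 of the 45 lie below 0.

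Libraries of one line were alike with and without lenalidomide. Each library's profile over the 55 start-proximal members was taken as the deviation of log2(CPM + 1) from the untreated mean, and every lenalidomide library resembled the untreated library of its own line more than that of any other line. The r with the own line was 0.82 (RPMI8226) to 0.92 (MM1S), whereas the best other line gave 0.37 (L363) to 0.73 (KMS27). Regions are not replicates, so these are descriptions over 55 regions.

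Genes that work with the cluster were read at the region nearest their start. Beside the counts below, 5.4% of all regions tested passed, 17.3% had an unadjusted p under 0.05 and 51.7% were below 0. Of 13 genes of histone transcription and mRNA processing with such a region, 0 passed the edgeR test after lenalidomide, 0 had an unadjusted p under 0.05, and 9 were below 0. The most accessible was NPAT, the coactivator that drives histone genes at entry to S phase, with 139 ± 52.7 CPM and a log2 change of -0.07 (adjusted p = 0.666). SLBP, which binds the stem-loop of histone mRNA, had 41.5 ± 19.7 CPM. The region read for POU2F1, an octamer-binding factor, had 7.15 ± 8.94 CPM. A single region was read per gene, and whether it holds the gene's main start was not tested. Histone genes of the smaller clusters were highest at HIST2H2AA3 (218 ± 68.5 CPM), a gene with a near-identical copy. Of their 8 tested regions 0 passed, 3 had an unadjusted p under 0.05 and 6 were below 0, with a median of -0.15. Variant histones (0 of 8, highest H2AFV at 90.8 ± 34.1 CPM), histone chaperones (0 of 7, highest ASF1B at 73.4 ± 29.3 CPM) and DNA replication genes (0 of 13, highest MCM3 at 99.9 ± 29.5 CPM) had no call by edgeR either, with 1, 1 and 0 unadjusted p under 0.05, and 11 of the 13 replication regions were below 0 with a median of -0.08. DESeq2 called 0 in each of these 5 lists.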

How the data were processed

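Chromatin accessibility was analysed in 22 untreated lines and in 6 of these after lenalidomide. The submitters' processing notes name Bowtie2 2.2.6, SAMtools 1.7, MACS2 2.1.0.20151222 and GRCh37, and the deposited regions are a union of MACS2 peaks at a q of 0.01. The deposited counts are raw reads per region. A second deposited table of whole numbers, which the files do not define, was read as the number of a library's own peaks in a region and used to call regions open. The authors' table of scaled values repeats these counts divided by each total and was not used. The study's methods mark duplicates with SAMtools in a passage on ChIP-seq files under a heading for both assays. Whether duplicates were left out of these counts, the treatment of reads with several matches, the shift of read ends for the transposase and whether reads or fragments were counted are not given in the sources used here.

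CPM was computed from the raw counts and each library's total in regions, and log2 values use a pseudocount of 1 CPM. The region assigned to a gene, its symbol and its distance come from the authors' annotation. Starts of 50 genes were placed by exact match of RefSeq promoters to GRCh37 and those of the other 5 from GENCODE. Lenalidomide was tested with edgeR 4.0.16 (R 4.3.3) on raw counts, with TMM factors, filterByExpr, the cell line as a block (each pair is 1 line) and two-sided quasi-likelihood tests, adjusted over all regions at 0.05. SEs were derived from the change and its F statistic. In a simulation of this comparison over 37732 regions, the test found 131 of 200 regions given a 2-fold change and made 3 false calls. Counts were drawn from the fitted model with the same change in every line. The simulation therefore does not cover smaller changes or changes that differ between lines. Sums were compared by an exact sign-flip permutation test over 6 lines. Alternatives were DESeq2 1.42.0, no TMM, other filters, no block, each line left out, and other scalings.

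Named members were those within 2.5 kb of a start with the 5 highest and 5 lowest means, the highest of each class, the 5 most variable, those past the threshold after lenalidomide, and the 3 highest beyond 2.5 kb. Of each list of other genes the highest and any past the threshold were named, with further marker genes for the check of cell type. Other members named (such as HIST1H4F, HIST1H4L and those near 0 in a line), SLBP and POU2F1 were chosen after their values were seen, as was the search for values near 0. The members, lists and tests were chosen with earlier results of these data known. The summed level of the erythroid markers is not reported here.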

Additional observations from a re-analysis of the deposited data

How the results depend on the processing

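The call of HIST1H2BB after lenalidomide was the least stable result. The number of members past the threshold, 1, was the same without TMM factors, without a filter on low counts (72 tested) and with start-proximal members alone, but 0 with DESeq2, 0 when every one of the 12 libraries had to hold 10 counts or more, where HIST1H2BB was not tested, and 0 with no replicate block, where no region of the genome passed. Leaving out 1 line gave 0 to 4. It was 0 without Karpas620, KMS27, L363 or MM1S, 2 without OPM2 (HIST1H3B and the lower HIST1H3J region) and 4 without RPMI8226 (HIST1H2AD, HIST1H2BD, HIST1H3B and HIST1H4H), and HIST1H2BB was in none of these sets. The median log2 change of the members stayed below 0 under every alternative run, at -0.06 without a filter, and -0.20 to -0.05 when 1 line was left out. The change of HIST1H4B was 0.0494 without a filter and -0.10 to 0.0651 with 1 line left out, and that of the higher HIST1H3J region was -0.13 to 0.0244. That of HIST1H2BB with no replicate block was -0.64. The cause was not tested.

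Members at or above 2 CPM in every line numbered 27 and those at or above 5 CPM numbered 21, against 9 called open in all 22. The median variation percentile of all 72 members, 61.95, was 57.95 with a pseudocount of 0.1, 64 with TMM-scaled CPM and 65.9 without PE1, the shallowest library. The median r between members was 0.25 with TMM scaling and 0.25 after subtracting the mean of the other start-proximal regions. The median HIST1H sum of 1900 CPM was 1802 CPM for start-proximal members and 1804 CPM with TMM scaling, and the ratio of highest to lowest line was 2.40 and 2.78. The count of members near 0 in a line was 12 of 33 at 5% of the median, 15 of 38 from a median of 10 CPM and 11 of 33 without KMS21BM, against 9.05%, 17.9% and 12.0% of all start-proximal regions; these alternatives were added after the data were seen.

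Each line was assayed once, copy number was not measured, and near-identical sequence leaves the split of reads between some members uncertain. Low members rest on few counts, and intervals cover counting error only.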

Other observations

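A stretch of 9 members assigned to HIST1H3PS1 lies at the end of the first block (chr6:26305080-26331903), and 1 of them overlaps the start of that pseudogene, at 25.9 ± 14.0 CPM. XG-6 had 3 counts there, where its median level would give 44.2. The other members of the stretch had means from 0.607 to 15.8 CPM, and the one at chr6:26305080-26305853 was 0 CPM in XG-6 and 29.2 CPM in KMS12BM. The region of HIST1H4PS1 in the third block (chr6:27763502-27764169), 12.6 ± 4.89 CPM, was steady over the lines by comparison, at percentile 7.6 of variation. The region 594 bp from the start of HIST1H2BG had a median of 9.45 CPM and was highest in KMS12PE at 53.7 CPM, ahead of KMS26 at 32.4 CPM. No explanation of these values was tested.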
